A study of Mus musculus with 6 samples.

Results

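The genes described here are 10 genes of the brain extracellular matrix: the lecticans Bcan, Ncan, Vcan and Acan, the link proteins Hapln1, Hapln2 and Hapln4, the receptor phosphatase proteoglycan Ptprz1, and the tenascins Tnr and Tnc. They were taken by name, with all 27 of their probe sets that carry a single gene symbol, out of 18194 named genes and 45101 probe sets. The list was drawn up with the difference between the cultures already known, so the difference of each of these genes is given as a description, without a p-value.

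The 6 Affymetrix arrays measured RNA of passage 3 neurospheres, free-floating spheres of dividing cells, from C57BL/6J mice. No genetic modification is labelled in either group. In the rNCSC group (3 arrays) the cells came from sensory (dorsal root) ganglia of embryos at day 12.5, and the labels call them reprogrammed towards the central nervous system. In the pNCSC group (3 arrays) the cells came from adult palate tissue of 3 to 5 mice that were 6 to 8 weeks old. Both cultures received basic fibroblast growth factor (20 or 40 ng/ml), heparin at 0.5 U/ml, 20 ng/ml of EGF, N2 and B27 (1% or 3%), and the labels do not say which culture received which of the paired levels. Tissue, donor age and culture differ together, so their parts cannot be told apart. The labels leave it unstated if replicates of a culture had separate animals or dishes as their source, so p-values and errors measure only the spread between these samples.

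Lecticans are proteoglycans whose core proteins carry chondroitin sulfate chains. One end of the core protein binds hyaluronan and the other binds tenascins, and link proteins lock the bond to hyaluronan. In the brain these parts form the loose matrix around progenitors and glia and the dense perineuronal nets around mature neurons, and in cartilage Acan and Hapln1 do the same work. Ptprz1 is a membrane phosphatase of neural progenitors and glia that carries the same chains, and its secreted form, phosphacan, joins this matrix.

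Values are GCRMA log2 expression values, on which a difference of 1 is a 2-fold change in signal. A value under 4 was treated as dim, that is, too close to the floor of the method to be read as a level. Where arrays of the lower culture were dim, they were set to 4 and the fold is given as "at least". Levels of different probe sets depend on their probes and are not compared with each other. In bulk RNA, fewer cells that express a gene and less RNA per cell cannot be told apart.

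Pairwise Pearson r was 0.988 to 0.996 within a culture and 0.833 to 0.844 between cultures. Of 11722 genes tested with limma, 73.3% differed between the cultures at a Benjamini-Hochberg adjusted p under 0.05, 40.2% with higher values in rNCSC and 33.1% with higher values in pNCSC, and 78.2% had no overlap between the groups. Any single call therefore says little about a gene by itself. Most lists of markers of cell types that the cultures could hold also differed between the groups. The 10 fibroblast and mesenchymal markers were all bright on every pNCSC array, with a summed level (log2 of the sum of unlogged values) of 16.08 to 16.42, and 7 of them were dim on all rNCSC arrays, with a summed level of 7.70 to 9.40. Astrocyte and radial glia markers (11 genes) summed to 15.47 to 15.65 in rNCSC and to 10.11 to 10.68 in pNCSC. In that list 6 genes were higher in rNCSC and S100b was 3.56-fold higher in pNCSC. Sox9 and Aldh1l1 did not pass the test, and Gfap and Gjb6 were dim on all 6 arrays. Of 11 oligodendrocyte lineage markers 5 were bright throughout rNCSC and 4 throughout pNCSC. Of the 11, Olig1 and Olig2 were dim in pNCSC and Cnp was 3.91-fold higher in rNCSC. Pdgfra was 28.2-fold higher in pNCSC, Sox10 was dim in rNCSC, and Mog was dim on all 6 arrays. Of 6 endothelial and mural markers the mural genes Rgs5, Kcnj8 and Abcc9 were bright in pNCSC and the endothelial genes Pecam1, Cdh5 and Kdr were dim on all 6 arrays, with list sums of 14.54 to 14.86 in pNCSC and 5.28 to 5.41 in rNCSC. The 8 leukocyte and mast cell markers summed to 11.23 to 12.27 in pNCSC and 6.33 to 6.87 in rNCSC. Among these Cd53, Cd14, Cpa3 and Mcpt4 were bright in pNCSC and dim in rNCSC, and Tpsb2 was bright on 2 pNCSC arrays. Kit did not pass the test, and Ptprc and Csf1r were dim on all 6 arrays. The 9 chondrocyte markers, listed because cartilage uses Acan and Hapln1, summed to 9.05 to 9.92 in rNCSC and 9.31 to 9.62 in pNCSC. Sox9, bright in both cultures, was the brightest of them. Comp was dim in rNCSC and read 5.69, 7.00 and 6.62 in pNCSC, while Col9a1 was bright in both cultures and 1.45-fold higher in rNCSC. Col2a1, Col11a2, Matn1, Matn3, Col10a1 and Cnmd were dim on all 6 arrays. The part of any of these cell types in the results was not tested.

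Of the 10 genes, 7 were bright on enough arrays to be tested, 4 of them had higher values in rNCSC (Bcan, Ncan, Ptprz1 and Tnc), 2 had higher values in pNCSC (Hapln1 and Hapln4), and Vcan did not pass the test. In a series where 73.3% of tested genes were called, and with the list chosen on this contrast, these counts carry no support of their own. The remaining 3 genes, Acan, Hapln2 and Tnr, were too dim for the test. A gene bright in 1 culture alone enters the test through that culture, so its direction and its lack of overlap were fixed in advance.

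Bcan, Ncan, Ptprz1 and Hapln1 read above 11 on every array of 1 culture and under 4 on every array of the other, and the 250 bases before their RefSeq starts (GRCm38.p6, sense strand) are shown to set the promoters of the first 3 beside that of Hapln1, which had the opposite pattern. The windows are chr3:88000357-88000606 on the minus strand, chr8:70120845-70121094 on the minus strand, chr6:22875252-22875501 on the plus strand and chr13:89540386-89540635 on the plus strand. Capitals mark matches, on either strand, to the E-box CANNTG, the SOX core ACAANG and the GC box GGGCGG, which do not overlap each other here.
Bcan: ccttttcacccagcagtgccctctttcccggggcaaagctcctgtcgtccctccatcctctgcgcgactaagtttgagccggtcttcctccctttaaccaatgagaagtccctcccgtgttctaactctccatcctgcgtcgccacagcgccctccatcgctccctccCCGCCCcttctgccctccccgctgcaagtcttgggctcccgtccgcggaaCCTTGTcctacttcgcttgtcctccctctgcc
Ncan: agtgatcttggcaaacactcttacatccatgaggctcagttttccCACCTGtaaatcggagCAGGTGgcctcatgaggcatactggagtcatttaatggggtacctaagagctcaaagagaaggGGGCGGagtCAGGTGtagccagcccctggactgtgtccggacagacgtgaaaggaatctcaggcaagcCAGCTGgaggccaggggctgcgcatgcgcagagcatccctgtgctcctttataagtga
Ptprz1: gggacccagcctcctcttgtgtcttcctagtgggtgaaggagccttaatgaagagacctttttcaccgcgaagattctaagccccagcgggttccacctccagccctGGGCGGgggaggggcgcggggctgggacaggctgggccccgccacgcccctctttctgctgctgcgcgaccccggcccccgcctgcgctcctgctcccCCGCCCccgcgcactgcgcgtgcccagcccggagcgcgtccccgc
Hapln1: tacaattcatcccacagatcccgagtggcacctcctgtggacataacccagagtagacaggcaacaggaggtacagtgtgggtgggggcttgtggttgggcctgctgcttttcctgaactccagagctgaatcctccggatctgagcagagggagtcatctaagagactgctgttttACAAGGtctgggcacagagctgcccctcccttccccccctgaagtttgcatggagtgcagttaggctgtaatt

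A GC box stood in the Bcan, Ncan and Ptprz1 windows and not in that of Hapln1, and the other motifs were not shared by all 3. Ncan had 4 E-boxes and 1 GC box, Bcan had 1 GC box and 1 SOX core, Ptprz1 had 2 GC boxes, and Hapln1 had 1 SOX core. Over 32851 RefSeq windows of the same length, 66.2% held an E-box, 36.3% a SOX core and 32.7% a GC box. A GC box also stood in the windows of Acan (3 matches), which was dim, and of Vcan (2 matches) and Tnc, which were bright in both cultures. GC content was 62.0% for Bcan, 54.4% for Ncan, 71.6% for Ptprz1 and 54.4% for Hapln1, against a median of 52.4% over all windows, and CpG pairs numbered 16, 6, 22 and 2 against a median of 6. A match of letters is a description of the sequence and not a site. Windows were at hand for 9 of the 10 genes, and Hapln4 is named only.

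Bcan encodes brevican, the lectican of postnatal brain and of oligodendrocyte precursors and astrocytes. On its brighter probe set the log2 value was 12.93, 13.11 and 13.11 on rNCSC replicates 1 to 3 and 2.69, 2.67 and 2.66 on pNCSC replicates 1 to 3. All 3 rNCSC arrays were far above the floor and all 3 pNCSC arrays were dim, with no overlap. The difference was 10.38 (SE 0.11, n = 3 per group). The second Bcan probe set read 9.77, 9.95 and 10.46 in rNCSC and 3.36, 3.36 and 3.13 in pNCSC, a difference of 6.77 and a fold of at least 66.6. The brighter probe set has a name ending in _x_at, a class in which some probes may also match other transcripts, so the smaller difference is the one free of that doubt.

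Ncan encodes neurocan, the lectican of the developing brain. Its brightest probe set read 12.11, 12.22 and 12.17 in rNCSC and 2.67, 2.66 and 2.49 in pNCSC, and the other Ncan probe sets stood at 9.48 ± 0.03 (SD, n = 3) and 6.91 ± 0.06 in rNCSC and were dim on all pNCSC arrays. The 3 Ncan probe sets gave differences of 9.56, 6.81 and 3.80, so the direction was shared and the size depended on the probes. Ncan varied little among rNCSC arrays: 11.7% of tested genes had an SD as small as its 0.06 or smaller there.

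Ptprz1 was read by 3 probe sets, and all were above 11 on every rNCSC array and dim on every pNCSC array. The brightest read 13.36, 13.28 and 13.58 in rNCSC and 3.66, 3.44 and 3.59 in pNCSC. The differences were 9.84, 10.79 and 9.02, a closer agreement than among the Ncan or Bcan probe sets, with folds of at least 679, at least 563 and at least 260.

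Vcan encodes versican, the lectican with the widest distribution, found in brain, neural crest pathways and connective tissue. Of its 8 probe sets 3 were bright in both cultures. The brightest read 10.93, 12.15 and 10.30 on rNCSC replicates 1 to 3 and 11.62, 12.32 and 12.07 on the pNCSC arrays. The groups overlapped, because rNCSC replicate 2 lay within the pNCSC range while rNCSC replicates 1 and 3 lay below it. The difference was -0.88 (SE 0.46). It was -1.39 without rNCSC replicate 2, -0.46 without rNCSC replicate 3 and -0.52 on the mean of all Vcan probe sets. A second bright probe set read 8.75, 10.25 and 8.05 in rNCSC against 10.59, 11.11 and 10.77 in pNCSC, without overlap, a difference of -1.81. The third gave -0.97 with overlapping groups. Replicate 2 was the highest rNCSC array on all 3 of these probe sets.

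The spread of Vcan among rNCSC arrays (SD 0.94) was larger than or equal to that of 97.5% of tested genes. The summed level of 6 Schwann cell markers was also highest on replicate 2, at 8.57, 10.46 and 8.68 on rNCSC replicates 1 to 3. Replicates 1 and 3 stood in the opposite order to Vcan, and 29.6% of tested genes were highest on replicate 2. The astrocyte and radial glia, epithelial, and endothelial and mural sums were highest there too, and the fibroblast and mesenchymal, neuronal and chondrocyte sums were lowest there. In the Schwann cell list Pmp22 (7.72, 10.11 and 7.93) and S100b (6.04, 7.82 and 5.82) were highest on replicate 2. In the same list Sox10, Erbb3 and Ngfr were dim on all 3 rNCSC arrays and Egr2 was lowest on replicate 2. Their part in the Vcan values was not tested. The other 5 Vcan probe sets read under 4 on every rNCSC array, and 1 of them reached 4.02 on pNCSC replicate 2.

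Acan, the aggrecan gene of cartilage and of perineuronal nets, was dim throughout. Its single probe set read 2.98, 2.73 and 2.60 in rNCSC and 2.81, 3.08 and 2.79 in pNCSC, which gives no level in either culture.

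**Figure D1:**
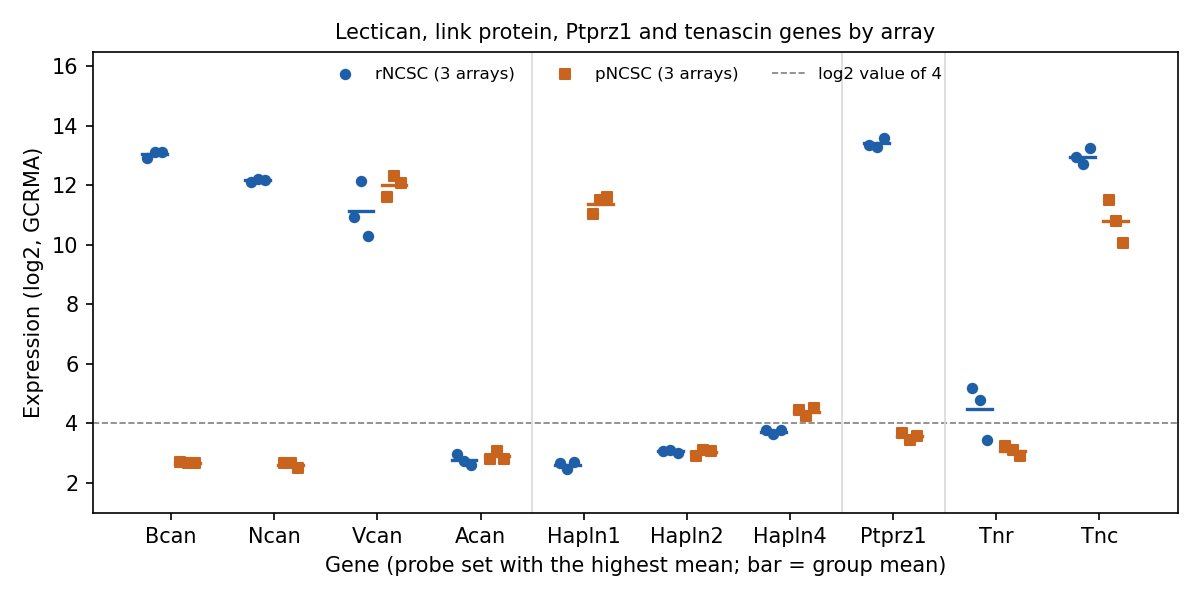
Log2 expression on each array for the brightest probe set of the 10 genes; circles are the 3 rNCSC arrays, squares the 3 pNCSC arrays, short bars the group means and the dashed line a log2 value of 4. Bcan, Ncan and Ptprz1 lie above 12 in rNCSC and under 4 in pNCSC. Hapln1 lies under 4 in rNCSC and at 11.03 to 11.60 in pNCSC, and Vcan and Tnc are bright in both cultures.

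Among the link proteins, Hapln1, the cartilage link protein that is also made in brain, stood far above the floor, in pNCSC alone. Its brightest probe set read 2.67, 2.47 and 2.70 in rNCSC and 11.03, 11.52 and 11.60 in pNCSC. The other Hapln1 probe sets also lay under 4 on each rNCSC array, and their pNCSC means were 9.67, 9.33 and 7.72. Differences ran from -8.77 to -5.13, so all 4 probe sets placed Hapln1 in the palate culture, with folds of at least 167 on the brightest and at least 13.2 on the dimmest. Its SD in pNCSC was 0.31, at or above that of 74.5% of tested genes.

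Hapln2, which stands at nodes of Ranvier of myelinated axons, read between 2.80 and 3.11 on its 2 probe sets over all 6 arrays and was dim throughout. Hapln4, a link protein of perineuronal nets, read 3.77, 3.64 and 3.77 in rNCSC and 4.43, 4.25 and 4.50 in pNCSC. The groups did not overlap, but every value stood close to the floor and the fold was at least 1.31. Hapln3, the remaining link protein, read 4.09, 4.07 and 3.91 in rNCSC and 4.13, 4.28 and 4.06 in pNCSC, where limma made no call (limma adjusted p = 0.35). Neither Hapln3 nor Hapln4 therefore read far above the floor in the culture where Bcan and Ncan were bright.

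Tnc encodes tenascin-C, a matrix glycoprotein of neural stem cell niches that connective tissue also makes. Its brighter probe set read 12.94, 12.72 and 13.24 in rNCSC and 11.50, 10.79 and 10.08 in pNCSC, without overlap. The difference was 2.18 (SE 0.35), a 4.52-fold higher signal in rNCSC. The second Tnc probe set read 11.33, 10.68 and 11.55 in rNCSC and 6.43, 5.43 and 4.91 in pNCSC, a difference of 5.60 and a 48.4-fold higher signal. Both probe sets put the 3 pNCSC arrays in the same order, with replicate 1 highest and replicate 3 lowest, and the gap between their differences was 3.42. Tnc had an SD of 0.71 in pNCSC, at or above that of 95.5% of tested genes.

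Among the marker lists, only the epithelial and the astrocyte and radial glia sums stood in the same order as Tnc on the pNCSC arrays. The sums of all other lists stood in other orders. Replicate 1 was the highest pNCSC array for 38.0% of tested genes. The 7 epithelial markers summed to 8.06, 7.22 and 6.96 on pNCSC replicates 1 to 3, with Krt18 at 7.22, 4.95 and 4.25 while Krt14, Krt8 and Cdh1 were dim. The 11 astrocyte and radial glia markers summed to 10.68, 10.29 and 10.11, with Gfap and Aqp4 dim on all 3. Their part in the Tnc values was not tested.

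Tnr encodes tenascin-R, a ligand of lecticans made by oligodendrocytes and some neurons. It read 5.19, 4.79 and 3.45 in rNCSC and 3.23, 3.11 and 2.89 in pNCSC, so it reached 4 on rNCSC replicates 1 and 2 alone and was left out of the test. The rNCSC values stood above the pNCSC values, with replicate 3 the closest, and the difference of the measured values was 1.40. The fold was at least 1.39. Without rNCSC replicate 3 the difference was 1.91. The neuronal marker gene Dcx had a similar order in rNCSC (5.83, 5.44 and 3.85), while the summed level of 11 neuronal markers was 12.44, 10.94 and 11.51, and their part was not tested. The tenascins Tnxb and Tnn, outside the 10 genes, were dim on all 6 arrays.

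**Figure D2:**
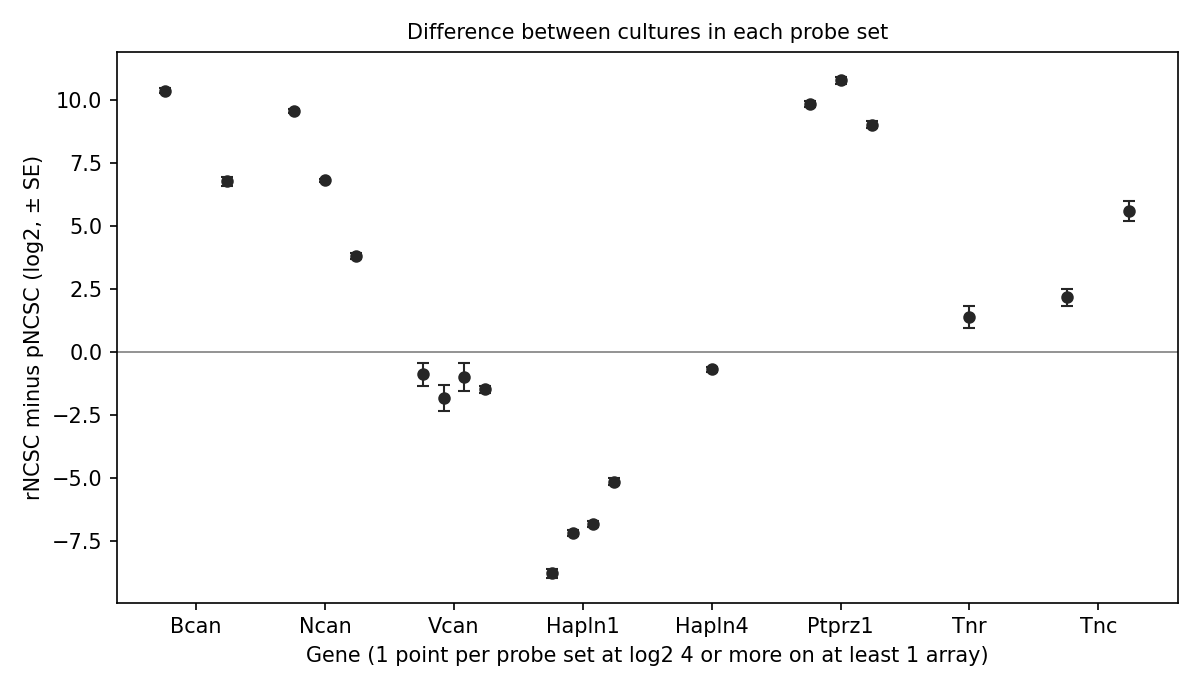
Difference between the cultures (rNCSC minus pNCSC, log2, with the standard error of the limma fit over all probe sets) for each probe set that reached 4 on at least 1 array, grouped by gene. The probe sets of a gene share a sign, and their sizes range from 3.80 to 9.56 for Ncan and from 2.18 to 5.60 for Tnc.

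Probe sets of the same gene thus shared a direction wherever they were bright, and differed in size. The gap between the largest and the smallest difference was 5.76 for Ncan, 3.64 for Hapln1, 3.60 for Bcan, 3.42 for Tnc, 1.76 for Ptprz1 and 0.93 for Vcan. In all, 7 of the 27 probe sets were under 4 on all 6 arrays.

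The lectican and link protein genes lie in pairs in the mouse genome, and the RefSeq gene table places no protein-coding gene between Bcan and Hapln2, between Ncan and Hapln4, between Vcan and Hapln1, or between Acan and Hapln3. The 2 genes of a pair did not have the same pattern in these cultures. Bcan was at 13.05 ± 0.10 in rNCSC while the adjoining Hapln2 was at 3.06 ± 0.04. Ncan was at 12.17 ± 0.06 in rNCSC and dim in pNCSC, while Hapln4 was dim in rNCSC and at 4.39 ± 0.13 in pNCSC. Vcan was bright in both cultures, but Hapln1 in pNCSC alone. Acan was dim in both and Hapln3 stood at the floor.

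The genes around each pair, up to 3 protein-coding genes on each side, gave 24 neighbours, of which 22 were on the array and 21 were tested. Of these 8 were higher in rNCSC, 7 were higher in pNCSC and 6 did not pass, a share close to the 73.3% of all tested genes. Next to Bcan, on the side away from Hapln2, lies Nes, which encodes the intermediate filament nestin of neural progenitors. Nes read 9.51, 9.60 and 10.21 in rNCSC and 6.43, 5.82 and 6.37 in pNCSC, 11.8-fold higher in rNCSC (limma adjusted p = 2.3e-05). Beyond it Crabp2, a retinoic acid binding protein gene, was higher in pNCSC by at least 2.24-fold and dim in rNCSC. On the far side of Hapln2, Gpatch4 was 3.88-fold higher in rNCSC and Naxe differed by 0.04 (SE 0.16) without passing.

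Around the other pairs the neighbours also went both ways. Next to Hapln1, Edil3, an integrin-binding matrix protein gene, was 10.8-fold higher in pNCSC (adjusted p = 0.00024), with 8.67, 9.63 and 7.97 on the rNCSC arrays, again highest on replicate 2. Rasa1 was 2.90-fold higher in pNCSC, and Cox7c (2.01-fold) and Xrcc4 (1.58-fold), which adjoins Vcan, were higher in rNCSC. Tmem167 did not pass, at a difference of -0.20, and the mean of its probe sets gave 0.50 with a call in rNCSC (adjusted p = 0.0018). Next to Ncan, Rfxank was 1.54-fold higher in rNCSC, but its call was lost on the mean of its probe sets (adjusted p = 0.11) and without probe sets ending in _s_at, _x_at or _a_at (adjusted p = 0.97). Nr2c2ap was 1.29-fold higher in rNCSC (adjusted p = 0.026), a call lost on leaving out rNCSC replicate 1, rNCSC replicate 2, pNCSC replicate 2 or pNCSC replicate 3 (adjusted p from 0.064 to 0.087), or on the mean of its probe sets (adjusted p = 0.093). Borcs8 was 2.46-fold higher in pNCSC. Mau2 and Sugp1 did not pass, at differences of -0.41 and -0.17, though Mau2 was called without rNCSC replicate 1 (adjusted p = 0.048), and Tm6sf2 was dim.

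At the Acan and Hapln3 pair, Isg20 was at least 1.70-fold higher, Mfge8 4.48-fold higher and Abhd2 4.94-fold higher in pNCSC. Rlbp1, a retinoid binding protein gene of glia in the retina, was at least 15.1-fold higher in rNCSC, with 9.20, 7.38 and 7.17 on the rNCSC arrays. Det1 and Aen did not pass, at differences of 0.24 and -0.12, and on the mean of its probe sets Aen was called in pNCSC at -0.61 (adjusted p = 0.022).

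**Figure D3:**
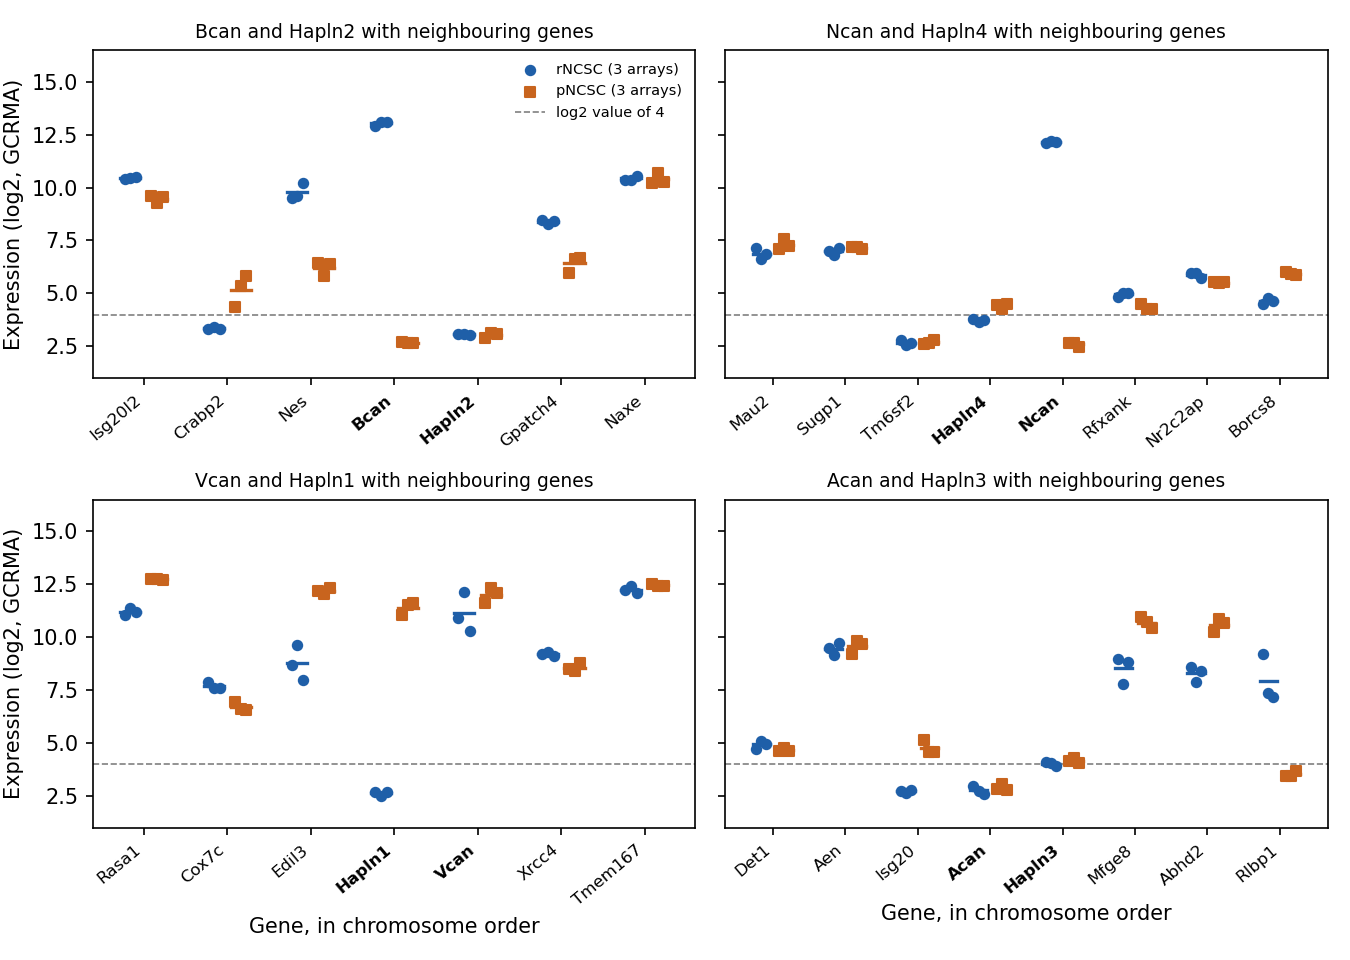
Log2 expression on each array for the 4 lectican and link protein pairs (names in bold) and up to 3 protein-coding neighbours on each side that are on the array, in chromosome order without distances; circles are rNCSC, squares pNCSC, short bars group means and the dashed line a log2 value of 4. Bcan and Ncan are bright in rNCSC beside dim link protein genes, and Hapln1 is bright in pNCSC alone beside Vcan.

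By the root mean square distance between profiles, each centred on its own mean over the 6 arrays, the 3 genes nearest to Bcan were Olig2, Olig1 and Ptprz1 (0.14 to 0.29). Those nearest to Ncan were Igfbp2, Mest and Ptprz1 (0.17 to 0.20), and those nearest to Ptprz1 were Ncan, Grm5 and Olig2 (0.20 to 0.27). Bcan, Ncan and Ptprz1 were dim on all pNCSC arrays, so these distances include values that are not levels, and no order is read from them. Tnc was closest to Ntn1 (0.21), Dennd11 (0.23) and Baz1a (0.24). Ntn1, the netrin-1 gene, read 10.29, 10.10 and 10.62 in rNCSC and 9.04, 7.97 and 7.94 in pNCSC. Vcan was closest to Wnt5b (0.22), Fgfr2 (0.25) and Tpd52l1 (0.29), all highest among rNCSC arrays on replicate 2, as 29.6% of tested genes were. Acan was too dim for this measure.

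Beyond the 10 genes, 116 genes that make, bind or cleave this matrix were taken as lists, of which 113 were on the array and 88 were tested. Of these 23 were higher in rNCSC, 51 were higher in pNCSC and 14 did not pass, with a median difference of -1.13 against 0.12 over all tested genes. The 84.1% called stands beside 73.3% of all tested genes. Each gene was read by its brightest probe set. On the mean of all its probe sets, dim ones included, the difference of 21 of the 74 called genes moved by over 1.5 times, and none of the 74 changed sign. Of the 74, 20 were dim on all arrays of the lower culture (27%, beside 19.3% of all called genes). These 20 entered the test through the other culture alone, which fixed their direction in advance, so they are given with a bound and no p-value. Genes bright on 1 array of the lower culture are also given without a p-value. By list the share called ran from 71.4% to 100%, except in the list of Hapln3, Tnxb and Tnn. There Hapln3 was the only tested gene and was not called.

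Enzymes that build chondroitin sulfate chains were higher in pNCSC for 8 of 11 tested genes, beside 33.1% of all tested genes. The list median was -1.36 and the called share was 81.8%, beside 73.3%. The chain polymerase gene Chsy3 read 9.08, 7.55 and 9.20 in pNCSC and averaged 3.97 ± 0.21 in rNCSC, with a fold of at least 23.4 towards pNCSC (limma adjusted p = 9.4e-05). Csgalnact1 and Csgalnact2, which start the chain, were 4.98-fold and 4.73-fold higher in pNCSC, and the polymerising factor gene Chpf2 was 3.92-fold higher. The 1 gene higher in rNCSC was the linker galactosyltransferase B3galt6 (2.15-fold, adjusted p = 0.0012). On the mean of their probe sets the differences of Chsy3 and B3galt6 shrank to -2.33 and 0.51, and that of Chpf2 also moved by over 1.5 times. Chsy1, the main chain polymerase gene, read 11.17, 12.15 and 11.37 in rNCSC and 11.96, 11.68 and 11.78 in pNCSC and did not pass, though without rNCSC replicate 2 it was called at -0.54 (adjusted p = 0.021). B3gat3 did not pass either, at -0.16, and on the mean of its probe sets it was called in rNCSC at 0.27 (adjusted p = 0.034).

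Enzymes that sulfate or epimerise the chains were also higher in pNCSC, for 8 of 12 tested genes (median -1.85), beside 33.1% of all tested genes. The called share was 91.7%, beside 73.3%. The genes of the dermatan sulfate branch, in which glucuronate is turned into iduronate, were among the 8. The epimerase genes Dse and Dsel were 34.8-fold and 10.6-fold higher in pNCSC, and Chst14, the dermatan 4-O-sulfotransferase gene, was 24.7-fold higher (adjusted p = 8.7e-07). Chst15, whose enzyme makes the doubly sulfated E unit, was at least 18.1-fold higher and dim in rNCSC. In rNCSC the 6-O-sulfotransferase gene Chst7 was 8.21-fold higher (adjusted p = 0.0017), at 9.98 ± 0.52 against 5.79, 7.45 and 7.59. The sulfate donor synthases differed, Papss1 being 2.26-fold higher in rNCSC and Papss2 at least 7.44-fold higher in pNCSC, with a Papss2 difference of -3.66 that shrank to -1.43 on the mean of its probe sets. Slc35b2, a sulfate donor transporter gene, was 1.70-fold higher in rNCSC. Chst11, the main 4-O-sulfotransferase gene, did not pass (difference -0.22, SE 0.64), with rNCSC values of 9.10, 6.56 and 8.04. The other main 6-O-sulfotransferase gene, Chst3, was dim on all 6 arrays.

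Hyaluronan, the polymer that lecticans and link proteins bind, is made by the Has enzymes at the cell surface. All 7 tested genes of this list were called, 6 of them higher in pNCSC. Over all tested genes 73.3% were called and 33.1% were higher in pNCSC. Has2 read 3.67, 3.45 and 3.23 in rNCSC and 9.78, 9.80 and 10.30 in pNCSC, where it was at least 62.2-fold higher. Has1 was at least 5.39-fold higher in pNCSC, and Has3 was dim on all 6 arrays. All 3 synthase genes were thus dim on every rNCSC array, the culture with bright Bcan and Ncan. Cemip, which drives hyaluronan breakdown, was at least 246-fold higher in pNCSC, a difference of -8.22 that shrank to -3.73 on the mean of its probe sets. Ugdh, which makes the glucuronate precursor, was 5.56-fold higher. The hyaluronidase gene Hyal2 was 1.49-fold higher in rNCSC, a call lost without rNCSC replicate 3 or pNCSC replicate 2 or 3 (adjusted p from 0.070 to 0.074).

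Among hyaluronan and lectican binding partners, 4 of 8 tested genes were higher in pNCSC and 2 in rNCSC, a called share of 75.0% beside 73.3% of all tested genes. Fn1, the fibronectin gene, was 230-fold higher in pNCSC, with rNCSC values of 4.81, 7.01 and 6.16. Cd44, the main hyaluronan receptor gene, was bright in both cultures and 9.52-fold higher in pNCSC (adjusted p = 1.4e-05). Layn, the layilin gene, was at least 8.58-fold higher in pNCSC. Fbln2, which binds lecticans at the end that also binds tenascins, was at least 10.5-fold higher there, but its probe sets without the _s_at, _x_at or _a_at ending gave a difference of -0.31 and were too dim to test. Hmmr, a hyaluronan binding protein that also works on the mitotic spindle, was 22.9-fold higher in rNCSC, where the difference was 4.52, or 2.72 without such probe sets. Tnfaip6, which modifies hyaluronan, was 2.19-fold higher in rNCSC. Fbn2 and Fbln1 did not pass, at 0.15 and 0.25, and Fbln1 was called in pNCSC at -0.95 without such probe sets (adjusted p = 0.0023).

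Receptors through which chondroitin sulfate proteoglycans act on cells were higher in rNCSC for 3 of 7 tested genes and in pNCSC for 2, a called share of 71.4% that lies near the 73.3% of all tested genes. The receptor phosphatase gene Ptprd was at least 28.5-fold higher in rNCSC and dim in pNCSC, and the related gene Ptprf was 16.1-fold higher in rNCSC (limma adjusted p = 0.00099). Tnfrsf19, a Nogo receptor partner, was at least 32.5-fold higher in rNCSC, while Ngfr, another such partner, was at least 11.5-fold higher in pNCSC. On the mean of their probe sets the differences of Ptprd, Tnfrsf19 and Ngfr shrank to 2.14, 2.20 and -1.81. Rtn4rl1 was 1.76-fold higher in pNCSC. Ptprs, the best known receptor of these chains, read 9.15, 9.02 and 9.54 in rNCSC and 9.68, 9.56 and 9.49 in pNCSC and did not pass (adjusted p = 0.096), though it was called in pNCSC at -0.49 without rNCSC replicate 3 (adjusted p = 0.021). Lingo1 did not pass, at 5.10 in both cultures, and the Nogo receptor gene Rtn4r was dim on all 6 arrays.

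Ligands and partners of Ptprz1 were higher in rNCSC for 6 of 10 tested genes, beside 40.2% of all tested genes, with a median of 0.60. The called share was 80%, beside 73.3%. Of the 6, Nfasc was at least 1.19-fold higher. Its call was lost on leaving out rNCSC replicate 1, rNCSC replicate 2 or any pNCSC replicate. Ptn, the gene of the Ptprz1 ligand pleiotrophin, read 14.53, 14.81 and 14.49 in rNCSC and 8.30, 8.21 and 8.11 in pNCSC, 84.7-fold higher (limma adjusted p = 1.1e-07). The related ligand gene Mdk, which encodes midkine, went the other way. Mdk read 3.99, 4.12 and 3.89 in rNCSC and 9.30, 6.41 and 5.87 in pNCSC. The fold was at least 8.87, and pNCSC replicate 1 stood far above pNCSC replicates 2 and 3. Cntn1, the contactin that the extracellular part of Ptprz1 binds, was at least 297-fold higher in rNCSC, reading 12.12, 13.24 and 11.40 there, with replicate 2 highest. The adhesion molecule gene Nrcam was 10.8-fold higher and the scaffold gene Magi3 7.90-fold higher in rNCSC, with differences that shrank to 2.23 and 1.27 on the mean of their probe sets. L1cam was at least 3.36-fold higher in pNCSC, at -2.44, or -1.35 on the mean of its probe sets. Ncam1 was 1.79-fold higher in rNCSC, and of 40 called matrix genes with several bright probe sets it was the 1 with a probe set called the opposite way, its probe sets running from -1.50 to 2.90. Git1 and Dlg4 did not pass, at -0.16 and -0.09.

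Tenascin receptors were higher in pNCSC for 6 of 9 tested genes, beside 33.1% of all tested genes. The called share was 88.9%, beside 73.3%. Itga8, an integrin subunit that binds tenascins, was 38.4-fold higher in pNCSC, with rNCSC values of 6.69, 7.84 and 5.01. Anxa2, which encodes a cell surface receptor of tenascin-C, was 43.6-fold higher in pNCSC, but the probe set without the _s_at, _x_at or _a_at ending gave a difference of -0.07 and was too dim to test. Itgb3 was at least 2.74-fold and Itga7 4.87-fold higher in pNCSC, and on the mean of its probe sets Itgb3 was too dim to test, at -1.67 in place of -2.86. In rNCSC, Egfr, which can bind EGF-like repeats of tenascin-C, was 16.3-fold and Itgb8 3.24-fold higher. The difference of Egfr, 4.03, shrank to 0.86 on the mean of its probe sets. Itga9, another integrin subunit that binds tenascin-C, did not pass at -0.03 (SE 0.48).

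Proteases that cut lecticans, and their inhibitors, were higher in pNCSC for 9 of 12 tested genes, beside 33.1% of all tested genes. The median was -4.26 and the called share was 91.7%, beside 73.3%. The largest differences in pNCSC were those of the metalloproteinase genes Mmp3, Mmp13 and Mmp2 and the inhibitor gene Timp1, which was at 3.45 ± 0.36 in rNCSC and 13.39 ± 0.17 in pNCSC, where it was at least 671-fold higher. The bounds were 2033-fold for Mmp3, 923-fold for Mmp13 and 422-fold for Mmp2. In rNCSC the inhibitor gene Timp4 read 12.29, 12.86 and 12.74 against 5.28, 3.81 and 3.26, at least 294-fold higher. The protease gene Adamts9 was 3.57-fold higher there, a difference that moved by over 1.5 times on the mean of its probe sets, in the same direction. The aggrecanases proper, chosen here after their values were seen, differed. Adamts1 was 19.0-fold higher in pNCSC. Adamts4 was called in pNCSC (adjusted p = 0.048) with values of 9.09, 6.10 and 6.59 there, its difference of -1.93 shrank to -1.02 without pNCSC replicate 1, and the call was lost on leaving out any rNCSC replicate or pNCSC replicate 3 (adjusted p from 0.056 to 0.11), with no filter on dim genes (0.069) and with a trended, robust prior (0.052). Adamts5 did not pass, reading 8.46, 6.74 and 8.13 in rNCSC and 6.29, 7.46 and 7.84 in pNCSC.

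Other chondroitin sulfate proteoglycans of the brain, and proteoglycans of connective tissue set beside them, were higher in pNCSC for 6 of 11 tested genes and in rNCSC for 3. Over all tested genes these shares were 33.1% and 40.2%. The called share was 81.8%, beside 73.3%. Cspg5, the neuroglycan C gene of brain, read 9.61, 8.63 and 9.33 in rNCSC and was dim in pNCSC, a fold of at least 36.5. Sdc3, the syndecan of the nervous system, was 5.88-fold higher in rNCSC, a difference of 2.56 that shrank to 1.51 on the mean of its probe sets, and Spock2 at least 1.28-fold. On the mean of its probe sets Spock2 was too dim to test, at 0.83 in place of 1.36. The connective tissue proteoglycan genes Bgn (at least 974-fold) and Dcn (at least 839-fold) were higher in pNCSC, the Dcn difference of -10.92 shrinking to -6.13 on the mean of its probe sets. Sdc1 was 12.0-fold and Nrp1 5.81-fold higher there. Cspg4, which encodes the NG2 proteoglycan of oligodendrocyte precursors and pericytes, read 8.90, 6.32 and 7.93 in rNCSC and 6.79, 8.40 and 7.40 in pNCSC and did not pass. Aplp2 did not pass either, at 0.21.

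**Figure D4:**
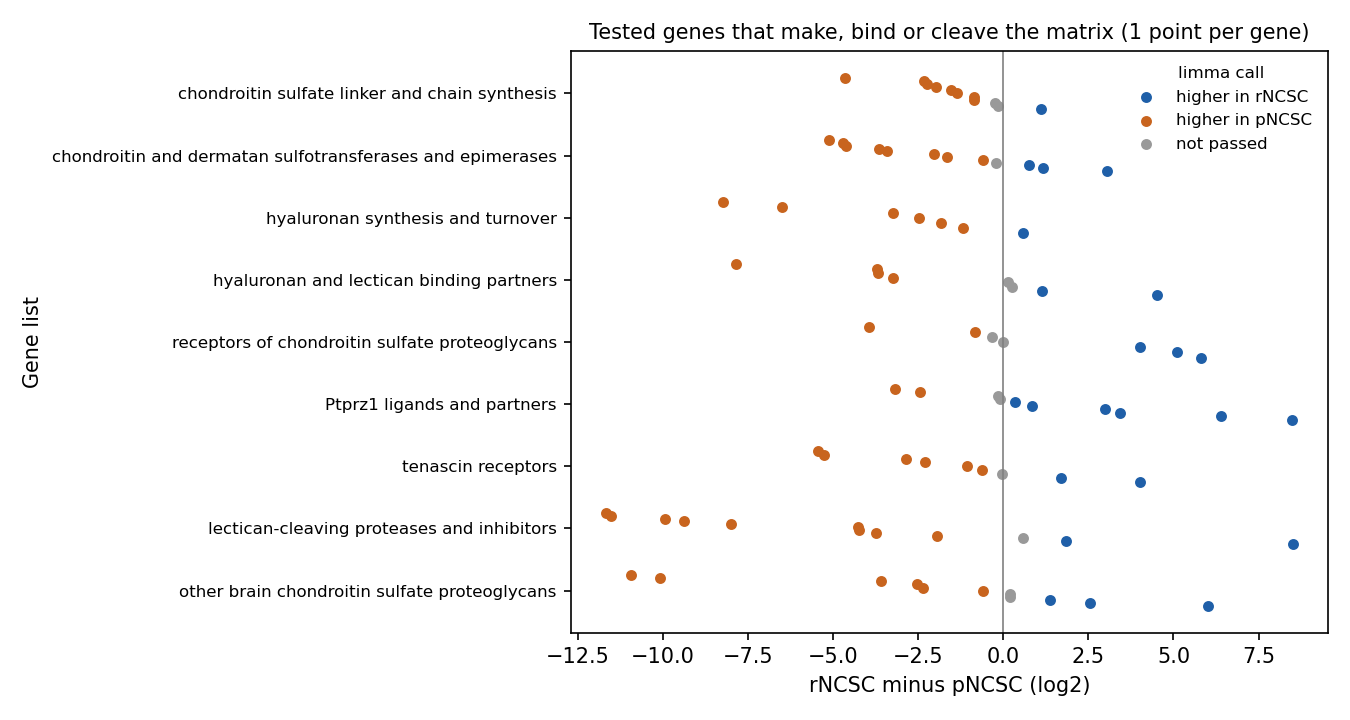
Difference between the cultures (rNCSC minus pNCSC, log2) for each tested gene of 9 lists of genes that make, bind or cleave the matrix; blue points were called higher in rNCSC, orange points higher in pNCSC and grey points did not pass limma's test. Hyaluronan, sulfation and protease genes lie mostly left of 0, and Ptprz1 ligands and partners lie mostly right of it.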

How the data were processed

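RNA from passage 3 neurospheres was labelled from 500 ng and hybridised to Affymetrix arrays, as the labels' protocols state. Deposited were log2 values per probe set and array. GCRMA is named in the submitters' processing notes, with version, settings and genome build not given in the sources used here. The log2 scale was read from the range of 1.22 to 15.58. Array medians were 4.01 to 4.04, and a general shift between cultures cannot be seen on this scale. Precision is limited by 3 arrays per group.

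Samples were grouped by title. The platform annotation gave 34958 probe sets 1 symbol, 932 several (left out) and 9211 none. The RefSeq table (GRCm38.p6) changed 0 symbols and gave neighbours and promoter windows. Per gene the probe set with the highest mean was kept, and genes at 4 or more on fewer than 3 arrays (6472) were left out. limma 3.58.1 (R 4.3.3; lmFit, eBayes, no covariates) was run over all 11722 genes, two-sided, Benjamini-Hochberg threshold 0.05. With 3 and 3 arrays the smallest exact permutation p is 0.1. The step was checked on simulated data.

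Members and lists were chosen with earlier results of these data known. Named were all 10 genes, Hapln3, Tnxb and Tnn, up to 4 called genes without overlap per direction of each list, genes not passed where 5 or fewer, neighbours up to 3 genes each side, and the 3 closest profiles of Bcan, Ncan, Vcan, Ptprz1 and Tnc (Acan, also in the rule, was too dim). Others named were chosen after their values were seen. Alternatives covered the filter, probe set choice, normalization, prior, replicate block, left-out arrays and a floor of 3.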

Additional observations from a re-analysis of the deposited data

How the results depend on the processing

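The counts of called genes kept within 1.5 times under all alternatives run, except that Hapln4 fell below a filter at log2 6, which left 1 of the 10 genes higher in pNCSC in place of 2. Leaving out each array, with the tested genes kept, gave 4315 to 4680 genes higher in rNCSC and 3588 to 3938 higher in pNCSC, against 4717 and 3879. Among the matrix genes the ranges were 21 to 22 and 49 to 51, against 23 and 51. Among the 10 genes 4 were higher in rNCSC in each such fit, and 2 or 3 were higher in pNCSC, the third being Vcan without rNCSC replicate 2. Without the filter Tnr was also called, giving 5.

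Replicate numbers did not pair the arrays: deviations of same-numbered arrays from their group means correlated at 0.04, -0.04 and -0.03. With the replicate block 4445 and 3721 genes were called, and among matrix genes 21 and 51, with 4 and 2 of the 10 genes. With the block Hyal2 and Nr2c2ap were not called (limma adjusted p = 0.053 and 0.072). Nfasc, dim in pNCSC and at least 1.19-fold higher in rNCSC, was also not called with the block. The Nfasc call was lost as well on leaving out rNCSC replicate 1, rNCSC replicate 2 or any pNCSC replicate. Results turned round for B3gat3 and Tmem167 on the mean of their probe sets (0.27 and 0.50) and for Fbln1 without probe sets ending in _s_at, _x_at or _a_at (-0.95). The mean includes dim probe sets, and the cause was not tested further. With a floor of 3 in place of 4, the bounds of the brightest probe sets rose. That of Bcan, on its _x_at probe set, went from 530-fold to 1060-fold, and that of Ncan from 287-fold to 575-fold. Ptprz1 went from 679-fold to 918-fold and Hapln1 from 167-fold to 334-fold.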
